A study of Mus musculus with 49 samples.

Results

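Whether immunization against the phosphorylated C-terminus of TDP-43 altered the neocortical transcriptome was examined by comparing rNLS8 mice that received peptide 15 with rNLS8 mice that received PBS. The members were taken by their group label alone, which gave 22 of the 49 mice of the series, 12 in the TDP-15 group (5 females and 7 males) and 10 in the TDP-PBS group (4 females and 6 males). All 22 mice were bigenic: a tTA transactivator under the NEFH promoter, which is active in neurons, drove a tetO-controlled human TDP-43 that lacks its nuclear localization signal. Their background was mixed, from C57BL/6J and C3H/HeJ. Doxycycline in the diet kept the transgene silent until 25.5 weeks of age, and cortex was taken at 28.5 weeks, that is, after 3 weeks of expression. TDP-15 mice had received 40 µg of an ovalbumin-coupled peptide carrying the disease-associated phosphoserines near the C-terminus of human TDP-43. It was given with CpG oligonucleotide and aluminium hydroxide, monthly from 8 weeks of age. The paper states 5 immunizations before the transgene was induced and a further one after it. TDP-PBS mice had received PBS in place of the peptide conjugate. Whether the PBS mice also received the adjuvants is not spelled out, so the antigen and the adjuvants cannot be told apart here. The remaining mice were 17 monogenic ctrl-PBS mice, which carry the tetO allele without tTA, and 10 bigenic TDP-10+12 mice given a pair of other TDP-43 peptides. They entered the model fit and are otherwise given only as reference levels.

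TDP-43 is an RNA-binding protein of the nucleus that leaves the nucleus and aggregates, phosphorylated, in amyotrophic lateral sclerosis and frontotemporal dementia. Antibodies engage Fc receptors on microglia, the resident phagocytes of the brain, and the complement system. Neurofilaments are the structural filaments of axons, and their light chain is released when axons are damaged.

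The total counts of the 22 libraries ran from 17775738 to 21033608. A floor of 3 counts corresponded to 0.141 to 0.161 CPM, that is, counts scaled to a common library total by the TMM method, the unit used below. The floor covers counting error only. The 95% intervals cover a spread between mice that was estimated over all groups of the series together, ctrl-PBS included. They therefore do not measure the spread among the 22 compared mice alone. Where ctrl-PBS mice vary less or more than the compared mice, the intervals draw on that spread too. Intervals from a fit of the 22 mice alone are not given here. Because whole cortex was measured, fewer cells of a type and less RNA per cell cannot be told apart.

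No gene was called as changed between TDP-15 and TDP-PBS. Of 18220 genes tested with edgeR's quasi-likelihood test, 0 (0%) passed a Benjamini-Hochberg adjusted p of 0.05, and the smallest adjusted p was 0.9996. At an unadjusted p under 0.05 there were 552 genes (3.03%), 297 higher in TDP-15 (1.63%) and 255 lower (1.4%), where uniform p-values would give 5%. DESeq2, limma-voom and limma-voom with quality weights also called 0 genes. At an unadjusted p under 0.05 they gave 812 of 39179 (2.07%), 567 of 18220 (3.11%) and 645 of 18220 genes (3.54%). In 0 genes did the 12 TDP-15 mice separate from the 10 TDP-PBS mice without overlap. The median size of the log2 difference was 0.055, and 20 genes differed by more than 1 on the log2 scale in either direction.

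The absence of calls came with narrow intervals for most genes. The 95% interval of the log2 difference reached a median of 0.178 to either side of the estimate, and it lay within ±0.5 for 76.6% of genes and within ±1 for 95.4%. Among genes with a mean of at least 10 CPM these shares were 97.9% and 99.6%. For genes between 1 and 10 CPM they were 72.7% and 97.2%, and below 1 CPM they were 5.35% and 75.7%. For many genes below 1 CPM the intervals at this depth and number of mice therefore did not exclude differences of 1 on the log2 scale.

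Tardbp and Prnp levels overlapped between the groups. Tardbp, which encodes TDP-43, had a lowest, median and highest level of 91.9, 120 and 137 CPM in TDP-PBS and of 103, 119 and 135 CPM in TDP-15. Its log2 difference was 0.03 (95% interval -0.08 to 0.14). The sources used here do not give how transgene reads entered the Tardbp count. Prnp, the prion protein gene, ran from 824 to 1112 CPM in TDP-PBS and from 905 to 1128 CPM in TDP-15, with ctrl-PBS mice at 434 to 525 CPM. Its log2 difference between the immunized and PBS mice was 0.00 (-0.13 to 0.14).

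Neurofilament transcripts overlapped between the groups. Nefl, which encodes the light chain measured in serum as NfL, stood at 105, 126 and 139 CPM (lowest, median, highest) in TDP-PBS and at 104, 118 and 152 CPM in TDP-15. Both groups lay below every ctrl-PBS mouse, which spanned 211 to 271 CPM. The log2 difference in Nefl between TDP-15 and TDP-PBS was -0.05 (-0.18 to 0.07). For the middle chain Nefm the log2 difference was -0.06 (-0.21 to 0.10), and for the heavy chain Nefh, whose promoter drives tTA, it was 0.00 (-0.16 to 0.17). Atf3, a transcription factor induced by axon injury, had 2.38 to 5.59 CPM in TDP-PBS and 2.29 to 8.63 CPM in TDP-15, far above the 0.108 to 1.25 CPM of ctrl-PBS. Its log2 difference was 0.26 (-0.18 to 0.70). Over 13 tested axon injury genes the median log2 difference was -0.04, from -0.79 for Sprr1a to 0.29 for Gadd45a. The plot of single genes shows how far these ranges coincide.

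**Figure D1:**
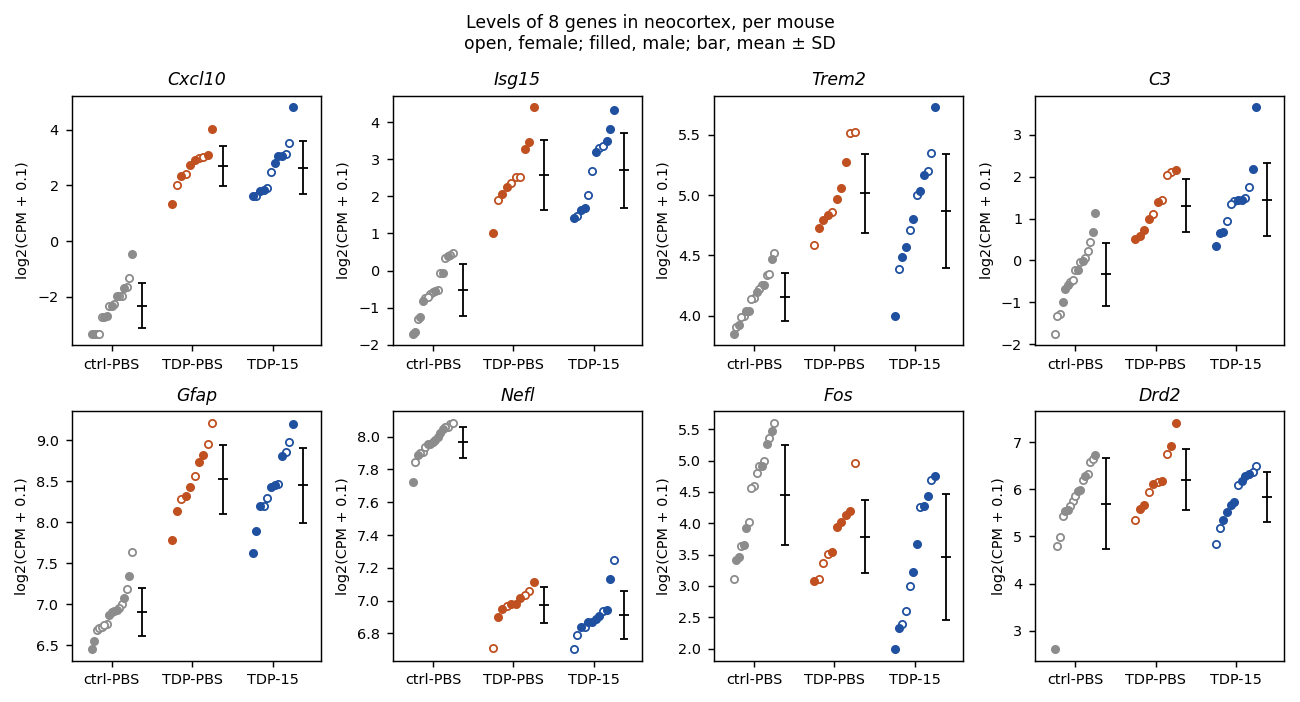
Levels of 8 genes as log2(CPM + 0.1) in each mouse of ctrl-PBS, TDP-PBS and TDP-15 (open circles, females; filled circles, males; points sorted within a group; bars, mean ± SD). The TDP-15 and TDP-PBS mice overlap in all 8 panels, while ctrl-PBS mice sit apart for Cxcl10, Isg15 and Nefl.

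Interferon-stimulated genes were mostly above 0, and single mice moved this count. Of 46 interferon-stimulated genes, which type I interferon induces against viruses, 43 had a positive log2 difference and 3 a negative one, while 9130 of the 18220 genes tested were positive. Their median log2 difference was 0.11, beside a median of 0.00 over all genes tested, and 0 of the 46 had an unadjusted p under 0.05, where 3.03% of all genes did. Isg15, a ubiquitin-like interferon product, had 1.93, 5.32 and 21.2 CPM in TDP-PBS and 2.56, 7.72 and 20.0 CPM in TDP-15 (lowest, median, highest). Its log2 difference was 0.15 (-0.51 to 0.80). The highest member was Oas3, a sensor of double-stranded RNA, at 0.59 (-0.20 to 1.38), and the lowest was Ifi211 at -0.23 (-1.15 to 0.69). Ifit1, which binds foreign RNA, stood at 0.17 (-0.36 to 0.69).

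The mean log2 CPM of the 46 genes ran from 2.47 to 4.56 in TDP-15 and from 2.26 to 4.16 in TDP-PBS. The SD of this mean between mice was 0.26 in ctrl-PBS, 0.48 in TDP-PBS and 0.66 in TDP-15. The intervals of these genes thus draw in part on less variable ctrl-PBS mice. For this mean, TDP-15 mouse 126, a male, was the highest of the 22. Without that mouse 15 of the 46 genes were positive and the median log2 difference was -0.04. Without the highest TDP-PBS mouse, number 217, also a male, 45 of 46 were positive and the median was 0.27. Without 6 mice that stood apart, a set chosen after seeing the data that holds both of these, 37 of 46 were positive and the median was 0.13.

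Chemokine genes overlapped widely. Cxcl10, a chemokine that draws T cells, had 2.41, 6.999 and 16.1 CPM in TDP-PBS and 2.99, 6.15 and 28.1 CPM in TDP-15. The highest values belonged to mouse 217 in TDP-PBS and to mouse 126 in TDP-15, and the medians lay in the opposite order to the log2 difference of 0.13 (-0.50 to 0.76). Leaving out mouse 126 turned that difference to -0.26. Ccl5 differed by 0.22 (-0.38 to 0.82), Ccl2, which draws monocytes, by 0.45 (-0.19 to 1.09), and the cytokine gene Tnf by 0.67 (-0.36 to 1.69). The 17 chemokine and cytokine genes had a median of 0.13, of which 11 were positive, and a median of -0.04 without mouse 126. The 17 guanylate-binding and immunity-related GTPase genes had a median of 0.08 with it and -0.14 without it.

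The medians of antigen presentation genes also turned without that mouse. The 17 tested MHC class I genes had a median log2 difference of 0.11, and -0.03 without mouse 126. B2m, the invariant class I chain, ran from 115 to 320 CPM in TDP-PBS and from 118 to 541 CPM in TDP-15, with a log2 difference of 0.11 (-0.28 to 0.51). Heavy chains H2-K1 and H2-D1 differed by 0.17 (-0.36 to 0.69) and 0.26 (-0.76 to 1.28), and without TDP-15 mouse 328 that of H2-D1 was -0.06. The 14 class II genes had a median of 0.09, and -0.08 without mouse 126, with Cd74, the invariant chain, at 0.19 (-0.48 to 0.87). These loci vary between the parental strains: H2-Ea, which the C57BL/6 strain does not express, was listed at 0 to 5.58 CPM in TDP-15 and at 0 to 2.93 CPM in TDP-PBS. H2-Ea was named after its values were seen, and the part of strain alleles in these lists was not tested.

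Fc receptor genes, through which antibodies engage microglia, overlapped between the groups. Fcgr1, the high-affinity IgG receptor, stood at 3.59, 5.69 and 6.38 CPM in TDP-PBS and at 3.03, 5.72 and 9.85 CPM in TDP-15, a log2 difference of 0.03 (-0.27 to 0.33). Fcgr2b, the inhibitory receptor, differed by -0.17 (-0.49 to 0.16), and Fcgr3, an activating receptor, by -0.21 (-0.49 to 0.08). Over the 8 tested Fc receptor and IgG-handling genes the median was -0.07. All 8 intervals lay within ±1, and 6 within ±0.5. Complement genes, 18 in number, had a median of 0.02, and of -0.09 without mouse 126, when 5 of the 18 were positive. C1qa, a chain of the initiator C1q, differed by 0.07 (-0.23 to 0.37), C4b by 0.00 (-0.35 to 0.34), and C3, the central component, by 0.33 (-0.30 to 0.97), with its highest value of 12.6 CPM in TDP-15 mouse 126 and -0.10 without that mouse.

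Microglial genes overlapped between the groups. The 26 disease-associated microglia genes had a median log2 difference of 0.01, 14 positive and 12 negative, and without mouse 126 a median of -0.06 with 7 positive. Trem2, a lipid receptor of microglia, ran from 23.9 to 45.8 CPM in TDP-PBS and from 15.9 to 52.998 CPM in TDP-15 around medians of 30.1 and 29.8 CPM. Cst7, an inhibitor of lysosomal cathepsins, differed by 0.04 (-0.55 to 0.63) and the integrin Itgax by 0.52 (-0.16 to 1.20), or 0.08 without mouse 126. Among 20 homeostatic microglia genes the median was -0.02, or 0.02 without TDP-15 mouse 184, and 18 intervals lay within ±0.5. The lowest of them was Aif1, which encodes IBA1, at -0.26 (-0.53 to 0.01), while P2ry12 and Tmem119, both markers of resting microglia, stood at -0.06 (-0.18 to 0.07) and -0.10 (-0.28 to 0.08).

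Gfap, the filament protein of astrocytes, had 220, 360 and 593 CPM in TDP-PBS and 198, 347 and 585 CPM in TDP-15, and its log2 difference was -0.06 (-0.46 to 0.33), or 0.03 without TDP-PBS mouse 82. The 24 reactive astrocyte genes had a median of -0.02, with 8 positive. It was -0.13 without mouse 126, when 1 of the 24 was positive, and 0.02 without TDP-PBS mouse 82, when 14 were. The lowest was Lcn2, a secreted iron-handling protein, at -0.73 (-1.64 to 0.17). Homeostatic astrocyte genes had a median of -0.04, and all 17 intervals lay within ±0.5. Myelin genes, 18 in number, had a median of 0.05, and oligodendrocyte precursor genes, 14 in number, of -0.02. The plot of list levels shows mouse 126 as the highest of the 22 mice for the interferon, chemokine, disease-associated microglia and reactive astrocyte lists.

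**Figure D2:**
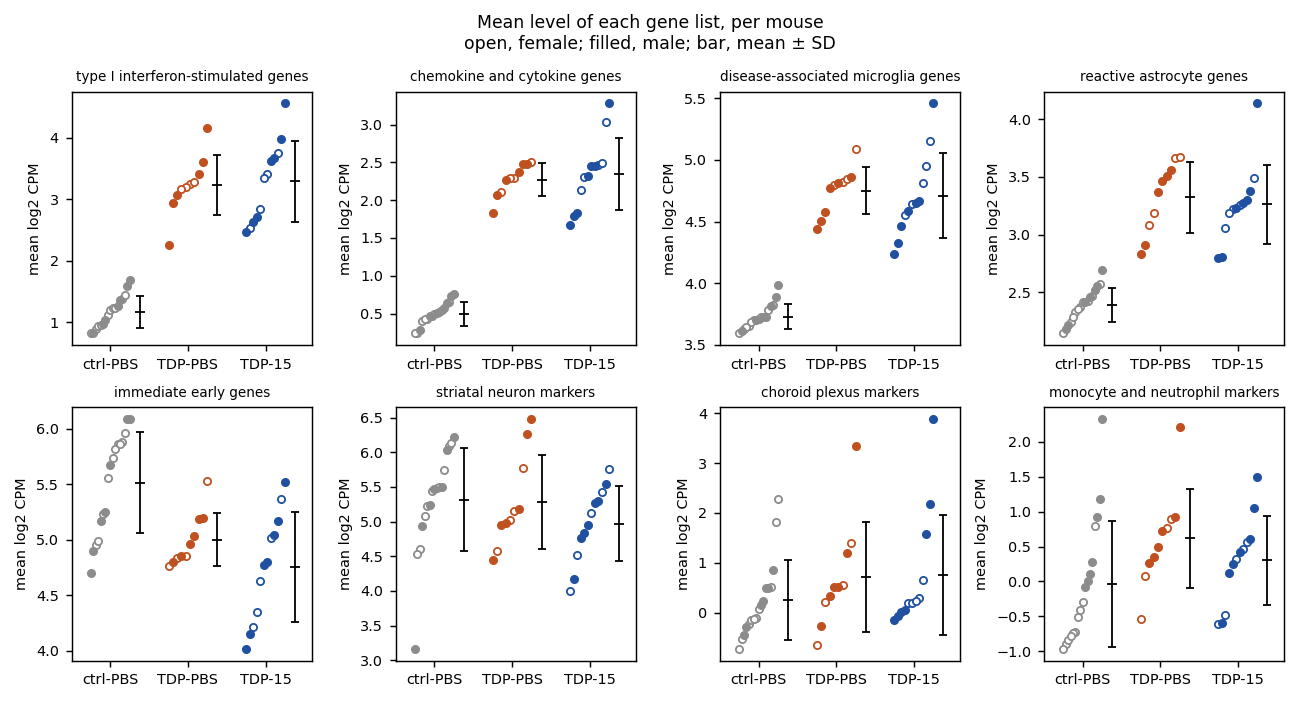
Mean log2 CPM over the tested members of 8 gene lists in each mouse (open circles, females; filled circles, males; bars, mean ± SD). The highest TDP-15 point in the interferon panel is mouse 126 at 4.56, and in the choroid plexus panel the highest points are TDP-15 mouse 243 at 3.89 and TDP-PBS mouse 26 at 3.35.

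Both bigenic groups differed widely from the monogenic mice. In TDP-PBS against ctrl-PBS, where 21.9% of all genes were called higher and 21.6% lower, 45 of the 46 interferon genes were higher, with a median log2 difference of 2.18. In TDP-15 against ctrl-PBS, where 23.6% were called higher and 23.2% lower, 46 were higher, with a median of 2.29. Disease-associated microglia genes were higher in 21 and lower in 2 of 26 in the first comparison, and higher in 20 and lower in 1 in the second, with medians of 0.88 and 0.85. Presynaptic genes were lower in 16 of 20 in each. Both comparisons use the same ctrl-PBS mice, so the values are only set side by side. Genes chosen on other mice, as those with an adjusted p under 0.05 by edgeR's quasi-likelihood test and a difference from ctrl-PBS of more than 1 on the log2 scale in TDP-10+12, gave a median log2 difference between TDP-15 and TDP-PBS of 0.08 for 333 higher genes and of -0.06 for 107 lower genes. The quartiles were -0.08 and 0.19 for the higher genes and -0.22 and 0.12 for the lower ones. The mean log2 CPM of the higher genes ran from 1.08 to 2.28 in TDP-15 and from 1.16 to 1.84 in TDP-PBS. These medians were not recomputed with single mice left out.

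Synaptic genes lay close to 0. Among 20 presynaptic and 20 postsynaptic genes the median log2 differences were 0.00 and -0.02, and all 40 intervals lay within ±0.5. Cplx2, a regulator of vesicle fusion, was the lowest presynaptic gene at -0.13 (-0.22 to -0.03), with an unadjusted p of 0.01 and an adjusted p of 0.9996 by edgeR's quasi-likelihood test. Excitatory neuron genes had a median of -0.03 and interneuron genes of -0.01. The 22 lysosomal genes had a median of 0.04, and all 22 intervals lay within ±0.5. Among stress genes, 25 ATF4 and amino acid stress genes had a median of -0.05, 15 genes of the endoplasmic reticulum response -0.06, and 21 p53 target and cell death genes -0.02.

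The immediate early genes and the striatal neuron markers lay below 0 in every tested member. All 18 immediate early genes, which neuronal activity induces rapidly, were negative, with a median of -0.17, and 0 of 18 had an unadjusted p under 0.05, beside 3.03% of all genes. Fos had 8.35, 13.4 and 31.1 CPM in TDP-PBS and 3.87, 10.9 and 26.8 CPM in TDP-15, and Egr1 197, 242 and 391 CPM against 91.2, 225 and 369 CPM. Their log2 differences were -0.13 (-0.81 to 0.54) and -0.32 (-0.77 to 0.13), and that of Fos was 0.05 without TDP-PBS mouse 82. The list level, as mean log2 CPM, ran from 4.01 to 5.52 in TDP-15 and from 4.76 to 5.53 in TDP-PBS. Without the same 6 mice, 5 of the 18 were positive and the median was -0.04.

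The 10 markers of striatal neurons mark tissue that borders the neocortex. Their median log2 difference was -0.39. Drd2, the dopamine receptor of the indirect pathway, had 40.9, 70.2 and 170 CPM in TDP-PBS and 28.4, 60.3 and 90.4 CPM in TDP-15, a log2 difference of -0.42 (-0.95 to 0.11). Ppp1r1b, which encodes DARPP-32, differed by -0.31 (-0.71 to 0.09). Their list level ran from 4.44 to 6.48 in TDP-PBS, with mouse 217 the highest, and from 4.003 to 5.75 in TDP-15. Its SD was 0.75 in ctrl-PBS, 0.68 in TDP-PBS and 0.54 in TDP-15, the reverse of the order for the interferon genes. Without mouse 217 the median was -0.20. The part of the striatal markers in the immediate early gene values was not tested.

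Markers of other tissue varied from mouse to mouse in both groups. Ttr, the transport protein of the choroid plexus, ran from 5.15 to 1221 CPM in TDP-PBS and from 3.68 to 1457 CPM in TDP-15, with mice 26 and 243 at the top. The 12 choroid plexus markers had a median log2 difference of 0.21, which was -0.48 without mouse 243 and 0.999 without mouse 26. Eomes, listed here as a marker of the olfactory bulb, was at 0 to 0.988 CPM in TDP-PBS, and at 0 to 14.5 CPM in TDP-15, where female 254 was the highest, while ctrl-PBS mice reached 24.5 CPM. Its log2 difference of 2.69 (0.35 to 5.04) was the largest of all genes with a mean of at least 1 CPM and was 1.46 without mouse 254. Frmd7, Doc2g and Shisa3, also among the 5 largest positive differences, had their highest values of 13.3, 31.7 and 13.01 CPM in the same mouse, where without it the log2 differences were 1.11, 0.58 and 0.59. The last of the 5 was Cldn34c1 at 1.08, or 0.47 without TDP-15 mouse 328. The 9 tested olfactory bulb and erythrocyte markers had a list level of -0.16 to 2.87 in TDP-PBS and of 0.60 to 3.27 in TDP-15, and their part in these differences was not tested.

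Markers of immune cells from the blood were low. The neutrophil granule gene Ngp had 0.193 to 11.5 CPM in TDP-PBS and 0 to 3.04 CPM in TDP-15, with a log2 difference of -1.25 (-2.75 to 0.26) that was -0.24 without TDP-PBS mouse 26. S100a9, another neutrophil gene, differed by -1.52 (-3.03 to 0.00), or -0.65 without the same mouse. Of the T and NK cell markers 5 of 22 in the table were tested, of B and plasma cell markers 5 of 13, and of monocyte and neutrophil markers 5 of 14. Cd8a, the co-receptor of cytotoxic T cells, was between 0 and 0.290 CPM in TDP-PBS and between 0 and 0.254 CPM in TDP-15. Jchain, the joining chain of secreted antibody, had 0.242 to 0.841 CPM against 0.195 to 1.13 CPM in TDP-15, a log2 difference of 0.45 (-0.13 to 1.03).

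**Figure D3:**
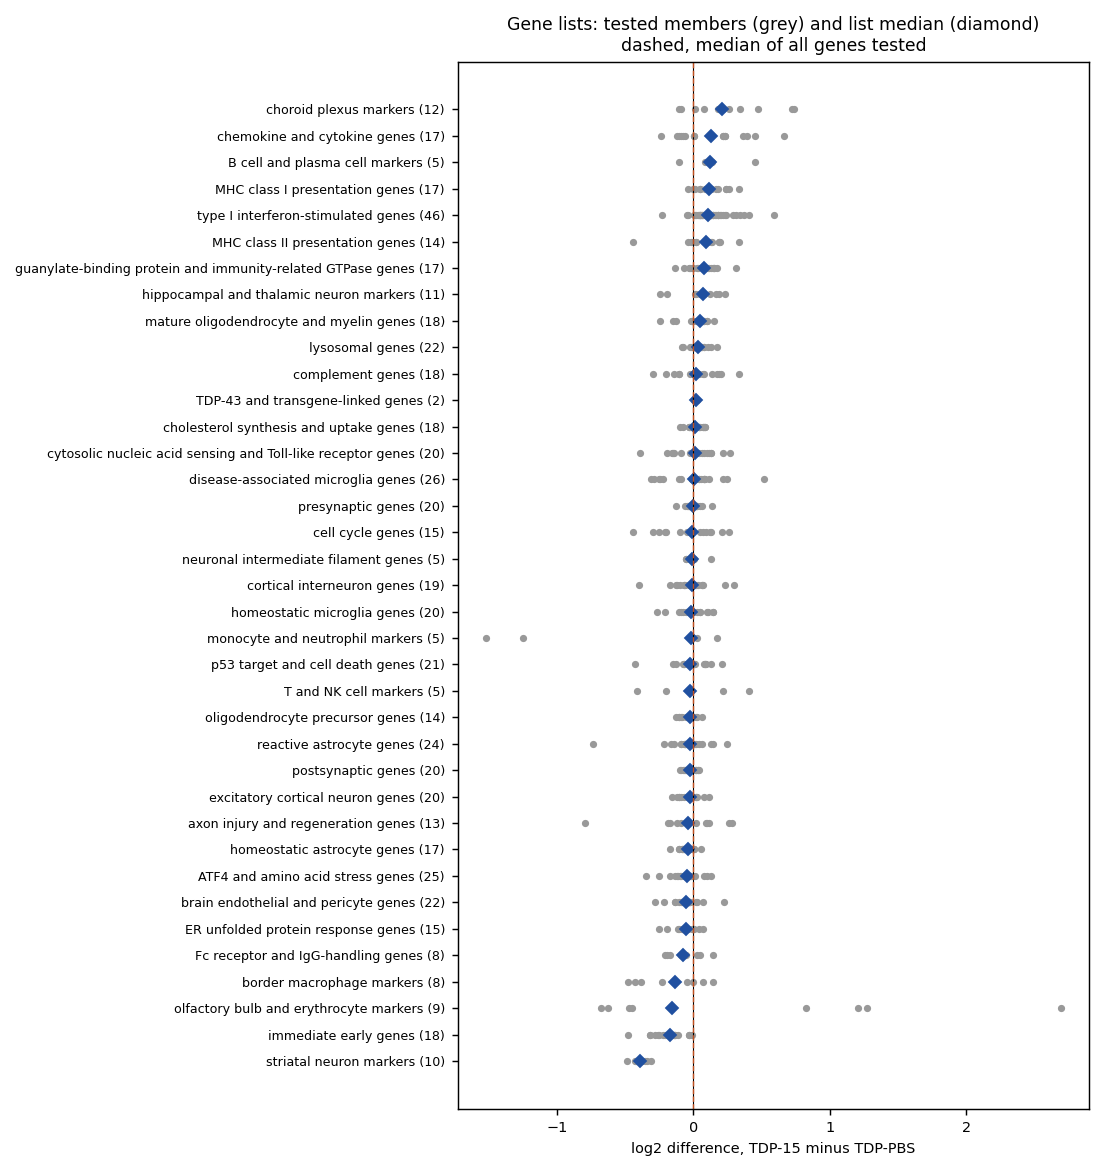
Log2 difference (TDP-15 minus TDP-PBS) of each tested member (grey points) and the median (diamonds) of 37 gene lists, with the number of tested members in brackets and the median of all genes tested as a dashed line. List medians lie between -0.39 for striatal neuron markers and 0.21 for choroid plexus markers.

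Of the genes with the smallest unadjusted p, 0 passed correction by edgeR's quasi-likelihood test. These genes were picked by p in the same mice, so counts of mice outside the TDP-PBS range partly follow from that choice. How often other genes give such counts was not tested. The smallest p belonged to A830092H15Rik, a long noncoding RNA, with 1.48, 2.16 and 4.20 CPM in TDP-PBS and 0.588, 1.32 and 2.25 CPM in TDP-15. Its log2 difference was -0.75 (-1.12 to -0.37), and 7 of 12 TDP-15 mice lay below all TDP-PBS mice. Gm46845, also noncoding, differed by -0.66 (-0.998 to -0.32), and 10 of 12 TDP-15 mice lay below all TDP-PBS mice. Lilr4b, an immunoglobulin-like receptor, had 0.191, 0.386 and 0.627 CPM in TDP-PBS and 0.195, 0.789 and 1.46 CPM in TDP-15, and 9 of 12 TDP-15 mice lay above all TDP-PBS mice. Its log2 difference was 1.03 (0.49 to 1.56). Its near relative Lilrb4a, which can share reads with it, differed by 0.33 (-0.08 to 0.73), so the level of either gene is uncertain.

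Better expressed genes among these had small differences. Slc7a6, an amino acid transporter, had 17.3, 20.1 and 23.4 CPM in TDP-PBS and 20.4, 22.9 and 24.3 CPM in TDP-15. Its log2 difference was 0.15 (0.06 to 0.24), and 4 of 12 TDP-15 mice lay above all TDP-PBS mice. On the lower side Kcnk2, a potassium channel, differed by -0.25 (-0.42 to -0.09), Bcr, a signalling protein, by -0.19 (-0.31 to -0.06), and Fam207a by -0.15 (-0.24 to -0.06). Further genes with the smallest p were Gm4852 at 0.95, Gm8730 at 0.54, Gm34110 at 0.45, Gm33457 at 0.79 and 1500002C15Rik at 0.59 on the higher side, and Spata21 at -0.96 and 2410080I02Rik at -0.43 on the lower side.

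Bc1, a small cytoplasmic RNA of neurons that represses translation at synapses, had the largest negative difference of any gene with a mean of at least 1 CPM. RefSeq places it at chr7:144914470-144914623 on build GRCm38.p6. Repeats across the mouse genome resemble it, so its level is uncertain. Its transcript model is shown because its middle holds an unbroken run of adenines, given in capitals, and libraries here were made from poly(A)-selected RNA. The part of this run in capture of the transcript was not tested. The GENCODE M21 sequence of 168 bases is as follows.
Bc1: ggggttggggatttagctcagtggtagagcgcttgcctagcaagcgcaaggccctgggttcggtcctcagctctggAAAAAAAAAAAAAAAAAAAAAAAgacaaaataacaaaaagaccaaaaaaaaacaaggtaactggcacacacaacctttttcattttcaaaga

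In TDP-PBS Bc1 ran over 170, 453 and 3227 CPM, and in TDP-15 over 118, 222 and 696 CPM, beside 147 to 605 CPM in ctrl-PBS. The log2 difference was -1.30 (-2.01 to -0.58), with an unadjusted p of 0.00061 and an adjusted p of 0.9996 by edgeR's quasi-likelihood test. The value of 3227 CPM belonged to 1 female, TDP-PBS mouse 82, and without it the log2 difference was -0.59. Of the 12 TDP-15 mice, 1 lay below all TDP-PBS mice. Gm5540 at -0.97 was the remaining gene among the 5 largest negative differences, beside Ngp and the pair Zfp33b and Gm31255 described below.

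**Figure D4:**
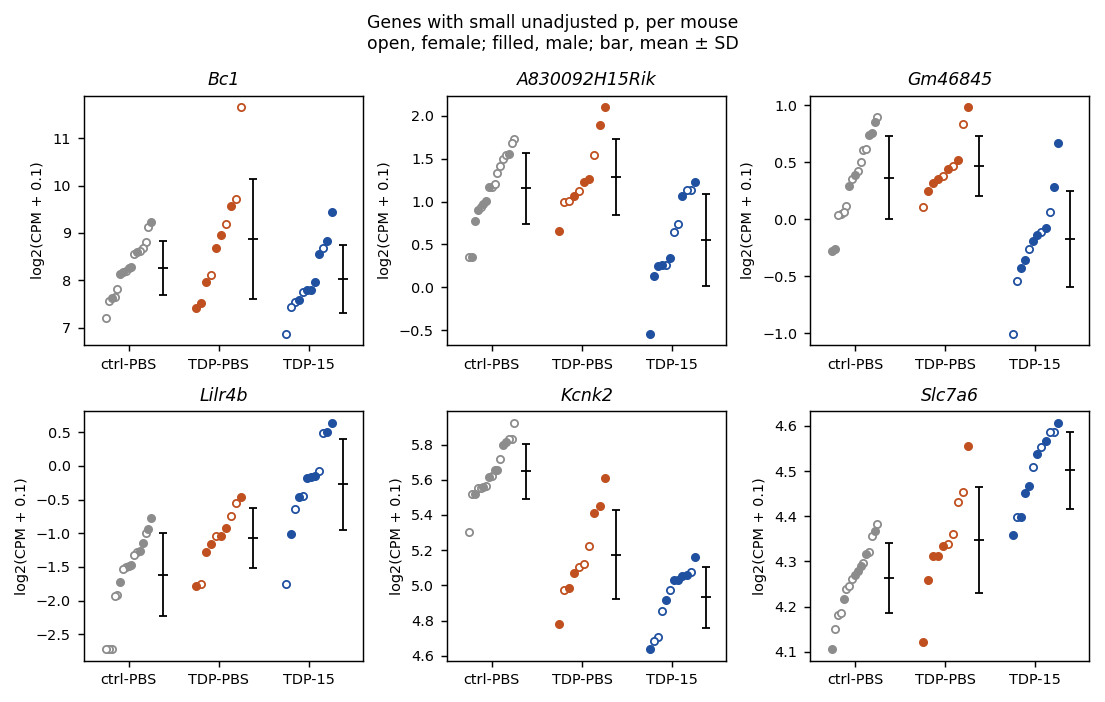
Levels of 6 genes among those with the smallest unadjusted p as log2(CPM + 0.1) in each mouse (open circles, females; filled circles, males; bars, mean ± SD). The single high TDP-PBS point in the Bc1 panel is mouse 82 at 3227 CPM, and the groups overlap in all 6 panels.

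The interaction of antigen and sex was called in 0 of 18482 genes by edgeR's quasi-likelihood test, with 510 at an unadjusted p under 0.05 (2.76%). Among females 0 genes were called and 508 (2.75%) had an unadjusted p under 0.05, and among males 0 and 509 (2.75%). limma-voom, with 18482 genes tested, and DESeq2, with 37288, also called 0 in each. At an unadjusted p under 0.05 they gave 518 and 704 genes for the interaction, 478 and 689 in females and 505 and 676 in males. As the numbers tested differ, these counts are not comparable between the 2 tools. Bc1 was among the genes with the smallest p in females, with a log2 difference of -2.49, against -0.13 in males. The 4 TDP-PBS females had 277, 582, 841 and 3227 CPM, and the 5 TDP-15 females 118, 174, 186, 215 and 410.5 CPM. Gm46538, a noncoding RNA, differed by 1.43 in females and by -0.10 in males. Bcdin3d, a methyltransferase, differed by 1.05 in females and -0.31 in males, and Myh15, a myosin, by 0.25 and -0.77. Interferon genes had medians of 0.01 in females and 0.19 in males, with mouse 126 among the males.

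The spread between mice was also compared. Over all genes tested, the SD of log2 CPM had a median of 0.197 in TDP-15 and 0.215 in TDP-PBS, and it was larger in TDP-15 for 41.9% of genes. Among interferon genes it was larger in TDP-15 for 42 of 46, with medians of 0.71 and 0.54, and among immediate early genes for 17 of 18, with medians of 0.49 and 0.33. Striatal markers had the larger SD in TDP-PBS in all 10. These are descriptions, and the difference in spread was not tested. The interferon SDs in TDP-15 include mouse 126, whose list level was 4.56, with the next TDP-15 mouse at 3.98. They were not recomputed without it.

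The main axes of variation among the 22 mice did not separate the groups by a permutation test. Principal component 1 of the 500 most variable genes held 24.1% of their variance, with a mean of -2.17 ± 15.7 (SD, n = 12) in TDP-15 and 2.6001 ± 14.4 (SD, n = 10) in TDP-PBS. The difference of -4.77 had an adjusted p of 0.94 by a two-sided permutation test with 100000 resamples over components 1 and 2. For component 2, with 12.1% of the variance, the adjusted p of the same permutation test was 0.977. Component 2 was positive in every female and negative in every male, with Xist the most positive weight and Ddx3y the most negative. It therefore followed sex, and its test says little about the antigen. The 8 genes with the most positive weights on component 1 were assigned to chromosome 4, and each was on in some mice and off in others, while the most negative weights belonged to Gm27177 and Gm16867 on chromosome 14. Gm10591, at chr4:42612123-42613253 on build GRCm38.p6, had at most 0.157 CPM in 5 TDP-15 and 2 TDP-PBS mice and reached up to 27.1 CPM in the others.

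Such on/off levels were found for 35 autosomal genes on 10 chromosomes, counted where at least 2 on the log2(CPM + 0.5) scale parted the mice into sets of at least 2. All 35 were among the 500 most variable genes, where a gap of this size by itself makes the variance large. Principal components were also computed without these 35 genes, Xist, Tsix and Y-linked genes. By the same permutation test the adjusted p was then 0.97 for component 1 and 0.71 for component 2. Between the groups 0 of the 35 had an unadjusted p under 0.05 by edgeR's quasi-likelihood test, beside 3.03% of all genes tested. The 35 genes followed only 13 distinct patterns of mice, so they are not 35 separate observations. Of the 35 genes, 20 lay on chromosome 4, with 3 patterns. Zfp33b and Gm31255, neighbours on chromosome 5, were on in the same 4 of 12 TDP-15 mice and the same 6 of 10 TDP-PBS mice, with log2 differences of -1.24 (-2.92 to 0.43) and -0.98 (-2.85 to 0.88), which placed both among the largest negative ones. Gm16867 and Gm27177 on chromosome 14 were on in 6 of 12 and 2 of 10 mice. H2-Q6, an MHC class I gene on chromosome 17, was on in 6 of 12 and 5 of 10. The mice descended from both C57BL/6J and C3H/HeJ, and the alleles at these loci were not given, so their part was not tested. The grid of on/off genes shows that mice of both groups shared each state.

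**Figure D5:**
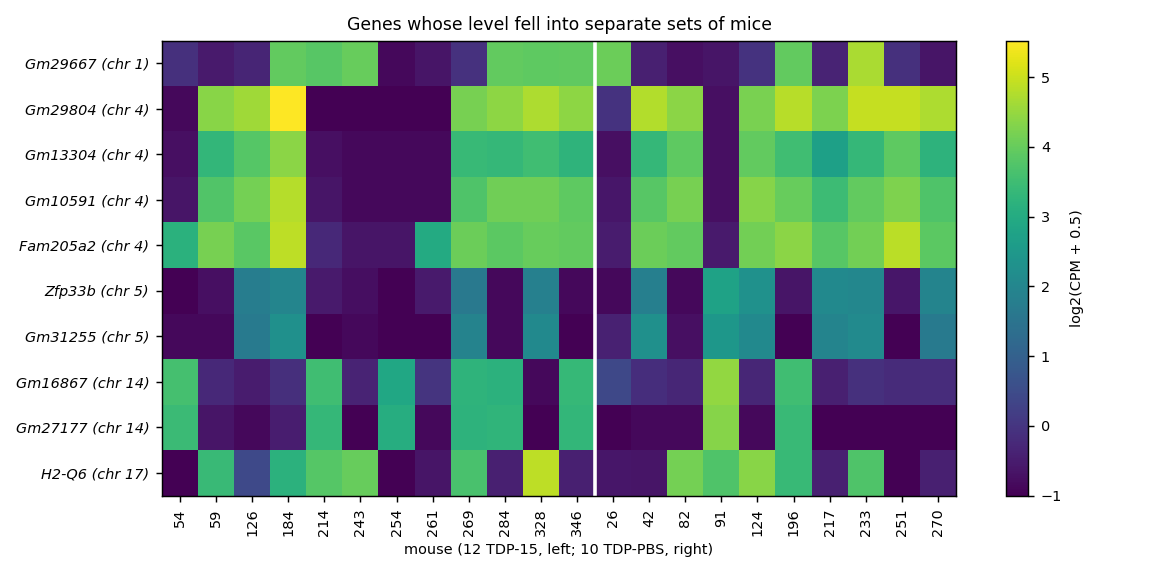
Log2(CPM + 0.5) of 10 genes (rows, with their chromosome) in the 12 TDP-15 mice and the 10 TDP-PBS mice (columns, by mouse number, parted by a white line). Light cells are mice in which the gene was on; Zfp33b and Gm31255 light up in the same mice, and the 3 chromosome 4 genes Gm29804, Gm13304 and Gm10591 are dark in 5 TDP-15 and 2 TDP-PBS mice.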

How the data were processed

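Neocortex RNA of 49 mice was sequenced from poly(A)-selected libraries. The authors deposited 1 table of whole-number counts per gene, not normalized, and analysed it with DESeq2. Per the labels, reads were placed on mm10, and the submitters' processing notes name HISAT, Bowtie2 and RSEM without versions. The gene annotation used for counting is not given in the sources used here. All sample columns were matched to mice (0 unused).

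From these counts, genes were kept by edgeR's filterByExpr (minimum count 10, minimum total 15), which left 18220 of 45252, and scaled by TMM. Models with 1 mean per group over all 49 mice were fitted by edgeR's quasi-likelihood test (edgeR 4.0.16, R 4.3.3), with Benjamini-Hochberg adjustment over all genes tested and a threshold of 0.05. Antigen by sex was fitted on the 22 mice. Alternatives used limma 3.58.1, DESeq2 1.42.0, sva 3.50.0, other scalings and filters, and left out each mouse in turn. List levels and principal components used log2 CPM with a prior count of 2. Scripts were tested on simulated data. The closest pair of libraries within a group differed by a chi-square per degree of freedom of 8.68, so none were copies. No batch was given.

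The genes named were the 8 with the smallest unadjusted p in each direction, the 5 largest differences in each direction at a mean of at least 1 CPM, the first 3 tested genes and the extremes of each list, and the 3 with the smallest p for sex, of which 1 gene is not reported here. H2-Ea, H2-Q6, Lilrb4a and the on/off genes were named after their values were seen, as were other list members. The comparison and the lists were chosen with earlier results of these data known. Mitochondrially encoded mRNAs and immunoglobulin and T cell receptor constant genes were not analysed here.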

Additional observations from a re-analysis of the deposited data

Results flagged for a closer look

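In 8 of 96 sets of 4 to 10 mice checked, 1 mouse lay far from the others by Dixon's gap ratio, the gap to the nearest mouse over the whole range, where chance gives about 1 in 20. For 10 mice the ratio had to pass Dixon's critical value at the 95% level. Mouse 26 was the highest for choroid plexus markers (ratio 0.488) and for monocyte and neutrophil markers (0.468) and the lowest for postsynaptic genes (0.472). Mouse 91 was the highest for ATF4 and amino acid stress genes (0.613) and for genes of the unfolded protein response (0.563), and among the TDP-PBS males the lowest for Gm46538 (0.726). Mouse 217 was the highest for Bcr (0.541), and without it the log2 difference of Bcr was -0.14. Mouse 233 was the lowest for Gm4852 (0.473), and without it that difference was 0.83. The 12 TDP-15 mice exceed the size for which this ratio was used and were not checked as a whole.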

How the results depend on the processing

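The count of genes past an adjusted p of 0.05 was 0 under all 12 other settings, in all 22 fits that left out 1 mouse and without 6 mice that stood apart, a choice made after seeing the data. Genes at an unadjusted p under 0.05 numbered 2034 of 39179 (5.19%) with no filter beyond 1 count, against 552 of 18220 (3.03%). Under the other alternatives they numbered 430 to 812, and their share of the genes tested ran from 2.07% to 3.54%. Leaving out 1 mouse gave 451 (2.48%) to 713 (3.92%), and the smallest adjusted p was then 0.340, for Gm46845 without TDP-15 mouse 59. With library totals as the only scaling, 394 were higher and 152 lower, against 297 and 255. Of the single-gene values, 13 moved by more than the spread between mice, for Doc2g, Eomes, Frmd7 and Omp. The cause was not tested. Leaving out 1 mouse turned the sign of the median of 21 of 37 gene lists. No paired analysis was possible because each animal number belongs to 1 mouse. Depth and the number of mice limit genes below 1 CPM most.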
